A study of Mus musculus with 28 samples.

Results

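The 9 genes described here, Sqle, Lss, Cyp51, Tm7sf2, Msmo1, Nsdhl, Hsd17b7, Sc5d and Dhcr7, encode enzymes of the path from squalene to cholesterol. They were taken by gene symbol from 10 deposited tables of pairwise group comparisons in mouse liver, each of which lists 47719 genes, and all 9 were found and tested in every table. The mice were male C57BL/6 animals, aged about 6 weeks at the start, in 7 groups of 4. Obeticholic acid (OCA), a derivative of a bile acid, was given by mouth daily for 4 weeks at 25 mg/kg, and tropifexor (LJN452), which has no bile acid structure, in the same way to 3 groups named low, mid and high. The labels do not pair its doses with these groups, so 0.1 mg/kg was taken as low, 0.3 mg/kg as mid and 0.9 mg/kg as high. Each drug had its own vehicle group, and the drug and vehicle groups had all eaten, for 26 weeks before dosing, a diet that took 40% of its calories from fat and held, by weight, 22% fructose and 2% cholesterol, to induce nonalcoholic steatohepatitis (NASH). The lean control group ate a diet with 10% of its calories from fat and neither fructose nor cholesterol. The treatment field of the vehicle samples names the drug while their titles name vehicle; the titles were followed, and every drug effect rests on that reading.

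Cholesterol is built from acetyl-CoA in a mevalonate arm that ends in squalene and a sterol arm that begins with it. In the sterol arm squalene is oxidised and closed into lanosterol, which then loses its extra methyl groups and has its double bonds moved and reduced. The liver is a major site of this synthesis, and its enzymes are known as targets of the transcription factor SREBP2, which is held back when the endoplasmic reticulum is rich in cholesterol. OCA and tropifexor are agonists of FXR, a nuclear receptor whose natural ligands are bile acids, which are made from cholesterol.

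The members lie on 9 different chromosomes of the mouse (GENCODE M21 annotation, build GRCm38, all protein-coding genes). Sqle is at chr15:59315077-59331192 on the plus strand, Lss at chr10:76531588-76557138 on the plus strand, Cyp51 at chr5:4081145-4104746 on the minus strand, Tm7sf2 at chr19:6062821-6068373 on the minus strand and Msmo1 at chr8:64718139-64733792 on the minus strand. Nsdhl is at chrX:72918557-72958514 on the plus strand, Hsd17b7 at chr1:169949535-169969241 on the minus strand, Sc5d at chr9:42251595-42264256 on the minus strand and Dhcr7 at chr7:143823145-143848410 on the plus strand. Lss overlaps an antisense gene, 4930483K19Rik, Cyp51 overlaps Akap9 on the opposite strand, and Tm7sf2 overlaps Vps51 on its own strand. The sources used here do not say whether reads were counted by strand, which matters for Lss and Cyp51. Counting by strand would not separate Tm7sf2 from Vps51. The levels of these 3 members are therefore less certain than those of the other 6.

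Promoter windows of 300 bases, from 250 before to 50 after a transcription start, were taken from RefSeq (GRCm38.p6) for the 8 members that the table holds (10 windows, 3 of them for Dhcr7). They were searched on both strands for letters of sites known from SREBP targets. The sterol response element written TCACNCCAC was in 0 of the 8 members' windows and in 1.24% of all 32851 windows. A second form, TCACCNCA, which fixes different bases, was in the windows of 2 members, Cyp51 and Hsd17b7, and in 4.42% of all windows. A CCAAT box, the site of NF-Y, which is known to act beside SREBP, was in at least 1 window of each of the 8 members and in 37.4% of all windows. The GC box GGGCGG was likewise in a window of each of the 8 members and in 35.7% of all windows. A match is only a run of letters, and the absence of one says nothing about the factor. The windows of 5 members are printed 5′ to 3′ on the gene's own strand, in lower case with matches to TCACCNCA and to CCAAT (or its complement ATTGG) in capitals. Cyp51 (chr5:4104648-4104947, minus strand) and Hsd17b7 (chr1:169969156-169969455, minus strand) are shown because they hold the second form of the element. Nsdhl (chrX:72918271-72918570, plus strand) and Msmo1 (chr8:64733529-64733828, minus strand) are shown because they hold 4 and 3 CCAAT boxes. Sc5d (chr9:42264251-42264550, minus strand) is shown because its response to tropifexor was the smallest of the 9.
Cyp51: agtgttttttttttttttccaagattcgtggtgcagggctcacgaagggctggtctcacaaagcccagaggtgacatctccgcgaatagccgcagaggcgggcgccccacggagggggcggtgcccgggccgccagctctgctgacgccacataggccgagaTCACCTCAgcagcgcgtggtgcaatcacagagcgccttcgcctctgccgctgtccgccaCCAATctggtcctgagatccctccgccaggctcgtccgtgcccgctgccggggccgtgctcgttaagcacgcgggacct
Hsd17b7: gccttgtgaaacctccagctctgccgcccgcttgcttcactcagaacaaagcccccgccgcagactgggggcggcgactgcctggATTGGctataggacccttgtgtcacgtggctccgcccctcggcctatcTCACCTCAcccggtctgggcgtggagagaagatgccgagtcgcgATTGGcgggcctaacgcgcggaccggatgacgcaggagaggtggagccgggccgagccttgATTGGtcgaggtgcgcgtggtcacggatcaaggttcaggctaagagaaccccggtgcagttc
Nsdhl: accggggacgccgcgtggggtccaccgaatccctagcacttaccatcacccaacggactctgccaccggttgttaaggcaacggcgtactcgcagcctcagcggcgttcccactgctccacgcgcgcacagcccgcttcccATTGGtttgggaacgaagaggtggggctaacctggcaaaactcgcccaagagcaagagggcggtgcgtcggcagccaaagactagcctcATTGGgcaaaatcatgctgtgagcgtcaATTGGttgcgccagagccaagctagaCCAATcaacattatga
Msmo1: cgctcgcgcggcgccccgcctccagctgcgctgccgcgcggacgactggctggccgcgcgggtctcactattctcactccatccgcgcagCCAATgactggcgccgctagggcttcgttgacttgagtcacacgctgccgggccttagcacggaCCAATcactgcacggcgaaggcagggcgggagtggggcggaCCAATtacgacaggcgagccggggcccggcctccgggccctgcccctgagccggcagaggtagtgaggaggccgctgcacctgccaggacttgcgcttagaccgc
Sc5d: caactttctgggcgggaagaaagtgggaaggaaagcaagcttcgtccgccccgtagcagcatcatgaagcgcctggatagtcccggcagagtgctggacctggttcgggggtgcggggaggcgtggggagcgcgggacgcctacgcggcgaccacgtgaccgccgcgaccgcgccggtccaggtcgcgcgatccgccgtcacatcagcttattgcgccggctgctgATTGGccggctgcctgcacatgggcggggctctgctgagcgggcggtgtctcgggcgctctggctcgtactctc
The element of Cyp51 begins 88 bases before the start and that of Hsd17b7 begins 117 bases before it. The CCAAT box of Sc5d begins 24 bases before the start. CCAAT boxes were thus found both in Msmo1 and in Sc5d, the members with the second largest and the smallest fold changes under tropifexor.

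Each deposited table gives 1 FPKM per group (fragments scaled to transcript length and to the size of the library) with a log2 fold change, a test statistic and a q-value, and no value per animal. The depth of each library is therefore unknown, and the spread between the 4 animals of a group enters only through the authors' Cuffdiff test. A gene was called when its q was under 0.05, which matched the authors' own flag in all 10 tables. The standard errors (SE) and 95% intervals given here were computed from the fold change and the test statistic and rescaled to match the deposited p-values. FPKM values of the same group differed between tables by a constant of up to 0.194 on the log2 scale, so a level is compared only within its table. As a check of dosing, Slc51b, a bile acid exporter gene that FXR activates, rose by 2.72 (log2) with OCA and by 5.38, 6.01 and 6.08 at the low, mid and high doses of tropifexor in the authors' deposited table of each drug group against its vehicle. Of 8 hepatocyte markers 7 were found, and none of the 7 was listed at 0 in any group.

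The members were lower in both vehicle groups on the NASH diet than in lean control. All 9 members fell in the OCA vehicle group relative to lean control, where 6.56% of tested genes were called lower, and all 9 fell in the tropifexor vehicle group, where 8.53% were called lower. The members' median log2 fold change was -1.83 with OCA vehicle and -1.68 with tropifexor vehicle, and the median of all tested genes was 0.02 and 0.01. Summed over the 9 genes, the level was 251 FPKM in the OCA vehicle group against 761 FPKM in lean control, and 262 FPKM in the tropifexor vehicle group against 765 FPKM in lean control. In whole liver, fewer cells of a type and less RNA per cell cannot be told apart.

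The entry into the arm showed the deepest fall. Sqle, squalene epoxidase, which carries out the oxidation that starts the arm, stood at 1.29 FPKM in the OCA vehicle group against 26.0 FPKM in lean control in the authors' deposited table, which is 4.97% of the lean level. In the tropifexor vehicle group it stood at 1.69 FPKM against 26.1 FPKM in lean control in the authors' deposited table, or 6.48% of the lean level. Of 15697 tested genes with a finite fold change, 24 lay lower than Sqle in the OCA vehicle comparison, and 32 of 15411 lay lower in the tropifexor vehicle comparison. Lss, lanosterol synthase, which closes the ring system, changed in OCA vehicle livers by -1.56 (log2, SE 0.374) and in tropifexor vehicle livers by -1.68 (SE 0.367), each per the authors' deposited table.

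The 5 members that act in the steps by which lanosterol loses its extra methyl groups fell relative to lean control. Their levels lay between 17.9% and 38.9% of the lean level with OCA vehicle and between 21.4% and 36.8% with tropifexor vehicle. Cyp51, lanosterol demethylase, was at 8.84 FPKM in the OCA vehicle group and 49.5 FPKM in lean control in the authors' deposited table. Tm7sf2, the sterol reductase that acts on the product of Cyp51, was at 17.3 FPKM in the OCA vehicle group and 61.5 FPKM in lean control by the same authors' deposited table. Msmo1, the methylsterol oxidase, was at 23.97 FPKM in the OCA vehicle group and 104 FPKM in lean control in the authors' deposited table. These are 17.9%, 28.1% and 23.1% of the lean level, in the order Cyp51, Tm7sf2 and Msmo1. Nsdhl, the dehydrogenase that removes the oxidised methyl group, changed by -2.23 (log2, SE 0.123) and -2.07 (SE 0.132) with OCA vehicle and tropifexor vehicle, per the authors' deposited table of each. Hsd17b7, the reductase that restores the hydroxyl group, changed by -1.36 (SE 0.174) and -1.44 (SE 0.172) in the same groups, per the authors' deposited table of each.

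The late enzymes fell less than Sqle, as did every other member. Sc5d, a desaturase that places a double bond in the ring, was the most abundant member in lean control and had the smallest fall, to 147 FPKM in the OCA vehicle group against 344 FPKM in lean control and to 148 FPKM in the tropifexor vehicle group against 346 FPKM in lean control, per the authors' deposited table of each. Dhcr7 is the reductase that removes a different double bond of that ring to yield cholesterol. It was at 27.0 FPKM in the OCA vehicle group and 89.7 FPKM in lean control in the authors' deposited table. The fold changes of the vehicle groups differed by -0.11 to 0.38 between them (tropifexor vehicle minus OCA vehicle, log2). None of these 9 differences was called by a normal test with Benjamini-Hochberg adjustment over 15230 genes, 0 had an unadjusted p under 0.05 by that test, 0 were called with the wider error described later, and 0.381% of all genes were called. For Sqle the difference was 0.38 (95% interval -0.02 to 0.79), an interval that includes 0.

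OCA raised part of the arm. Relative to OCA vehicle, 3 of the 9 members rose and 6 were not called, where 1.81% of tested genes were called higher. Sqle rose to 3.34 FPKM in OCA livers against 1.38 FPKM in OCA vehicle livers in the authors' deposited table, a fold of 2.43. Msmo1 was at 51.3 FPKM in OCA livers and 25.5 FPKM in OCA vehicle livers in the authors' deposited table, a fold of 2.01. Nsdhl was at 14.9 FPKM in OCA livers and 8.31 FPKM in OCA vehicle livers in the authors' deposited table, a fold of 1.79. These 3 genes belong to the oxidation of squalene and of the methyl groups.

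The other 6 members had positive fold changes with OCA that did not pass the test. Cyp51 stood at 0.94 (log2, q = 0.0994), Dhcr7 at 0.85 (q = 0.564) and Lss at 0.61 (q = 0.786) in the authors' deposited table. Sc5d stood at 0.44 (q = 0.108), Tm7sf2 at 0.43 (q = 0.374) and Hsd17b7 at 0.28 (q = 0.677) in the authors' deposited table. The median of the 9 was 0.84, against -0.01 for all tested genes. Errors differed between members: Dhcr7 had an SE of 0.438 and Nsdhl one of 0.127, at fold changes of 0.85 and 0.84 in the authors' deposited table.

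Tropifexor raised most of the 9 members at the low dose, all of them at the mid dose and all but Sc5d at the high dose. Relative to tropifexor vehicle, 6 of the 9 members rose at the low dose, where 6.03% of tested genes were called higher. At the mid dose 9 of 9 rose, where 11.8% were called higher, and at the high dose 8 of 9 rose, where 9.93% were called higher. The members' median log2 fold change was 1.37, 2.12 and 1.59 at the low, mid and high doses, and that of all tested genes was -0.000561, -0.00564 and -0.0497. The 3 comparisons share the same vehicle animals.

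Sqle had the largest fold change of the 9 at each dose. It stood at 26.3 FPKM in low-dose livers against 1.93 FPKM in vehicle livers, at 31.7 FPKM in mid-dose livers against 1.69 FPKM, and at 28.1 FPKM in high-dose livers against 1.75 FPKM, per the authors' deposited table of each dose. These are folds of 13.7, 18.8 and 16.0 from the low to the high dose. In these comparisons 84, 67 and 99 of all tested genes had a higher fold change than Sqle, from the low to the high dose. With OCA at 25 mg/kg, 207 of 15658 genes had a higher fold change than Sqle in the comparison with OCA vehicle; the doses of the drugs differ, so the values only stand side by side.

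Lss rose by 1.37 (log2, q = 0.0181) at the low dose, 2.12 at the mid dose and 1.59 at the high dose, per the authors' deposited table of each dose. Among the enzymes of demethylation, Cyp51 rose by 2.29 (SE 0.439), 2.92 (SE 0.333) and 2.61 (SE 0.330) at the low, mid and high doses, per the authors' deposited table of each. Msmo1 was at 139.5 FPKM in low-dose livers against 26.8 FPKM in vehicle livers, at 209.99 FPKM in mid-dose livers against 23.4 FPKM, and at 151 FPKM in high-dose livers against 24.4 FPKM, per the authors' deposited table of each dose. Msmo1 therefore followed Sqle in size at the low, mid and high doses, with folds of 5.21, 8.96 and 6.19. Cyp51 lay close behind Msmo1, with folds of 4.89, 7.55 and 6.12 at the same doses. Nsdhl rose by 1.68 (SE 0.179), 2.72 (SE 0.134) and 2.23 (SE 0.135), the narrowest errors among the members, per the authors' deposited table of each dose. Hsd17b7 rose by 0.94, 1.73 and 1.27 at the low, mid and high doses in the authors' deposited table of each dose.

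The remaining 3 members were not called at the low dose. Tm7sf2 stood at 0.63 (log2, q = 0.0785) at the low dose and rose by 1.84 at the mid dose and 1.24 at the high dose, per the authors' deposited table of each. Dhcr7 stood at 1.04 (q = 0.215) at the low dose, with an SE of 0.616, the widest among the members, and rose by 2.03 and 1.44 (q = 0.00705) at the mid and high doses, per the authors' deposited table of each. Sc5d was at 170.5 FPKM in low-dose livers against 168 FPKM in vehicle livers, with a fold change of 0.02 (q = 0.985), per the authors' deposited table. At the mid dose Sc5d was at 299.7 FPKM against 147 FPKM in vehicle livers, a called rise of 1.03, per the authors' deposited table. At the high dose it was at 171 FPKM against 153 FPKM in vehicle livers, a fold change of 0.16 (q = 0.463), per the authors' deposited table. The low-dose table had the widest errors of the vehicle comparisons, with a median member SE of 0.249 against 0.181 to 0.205 in the other 5.

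**Figure D1:**
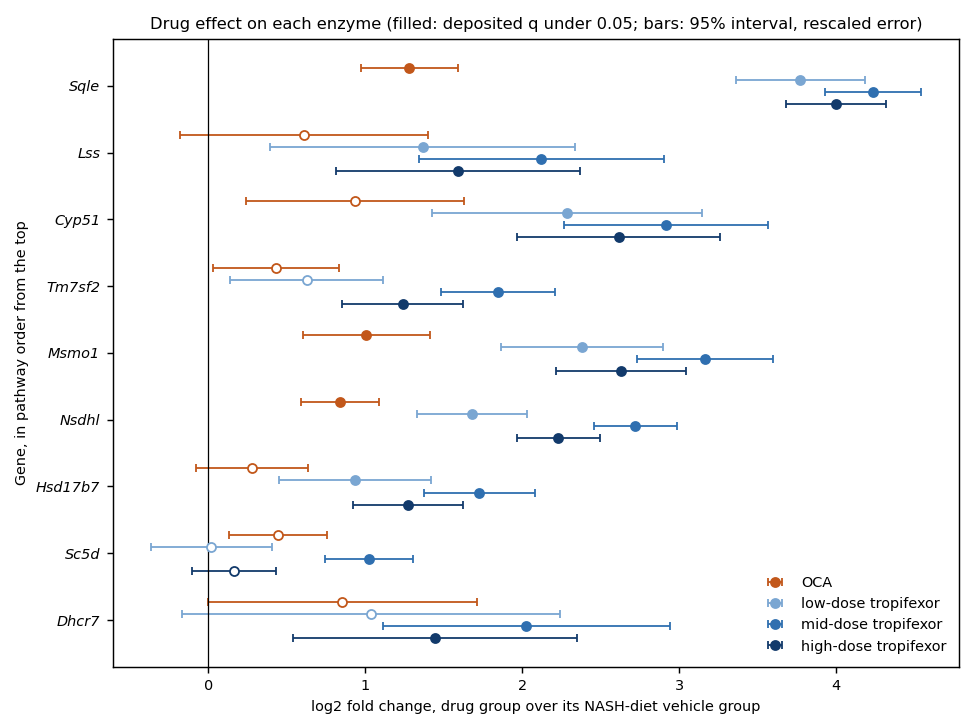
Log2 fold change of each member (rows, in pathway order) in OCA livers relative to OCA vehicle and in low-, mid- and high-dose tropifexor livers relative to tropifexor vehicle; points are the deposited fold changes, filled where q was under 0.05, and bars are 95% intervals from the rescaled error. Sqle lies at 1.28 with OCA and between 3.77 and 4.23 with tropifexor, and Sc5d lies near 0 at the low and high doses and at 1.03 at the mid dose.

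All 9 fold changes were largest at the mid dose. The effect of the mid dose minus that of the low dose was positive for 9 of 9 members, with a median of 0.79 (log2) against 0.02 for all genes. Of these differences 3 were called, by a normal test with Benjamini-Hochberg adjustment over 15368 genes, where 3.69% of genes were called higher. They were Tm7sf2 with 1.22 (95% interval 0.61 to 1.83), Nsdhl with 1.04 (0.60 to 1.48) and Sc5d with 1.01 (0.53 to 1.48). The effect of the high dose minus that of the mid dose was negative for 9 of 9 members, with a median of -0.53 against -0.03 for all genes. Only Sc5d was called, with -0.86 (95% interval -1.25 to -0.48), where 1.45% of 15374 genes were called lower. The high dose minus the low dose was positive for 9 of 9 members, with a median of 0.33, and 0 were called by the same test, 1 member (Nsdhl) having an unadjusted p under 0.05; 1.46% of 15467 genes were called higher.

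With the wider error that the test statistic implies before rescaling, 0 members were called in any of these 3 dose comparisons. Under that error 0.423% of genes were called for mid minus low dose, 0.319% for high minus mid dose and 0.278% for high minus low dose. All 3 doses are set against the same vehicle group. The 9 members were measured in the same livers, so the signs of the 9 differences are not independent of each other. The mid-dose group enters both mid minus low and high minus mid dose, so the signs of these comparisons are not separate observations. For the entry enzyme the interval of the difference includes 0 in each comparison: Sqle differed by 0.46 (95% interval -0.05 to 0.97) between the mid and low doses and by -0.24 (-0.68 to 0.21) between the high and mid doses.

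**Figure D2:**
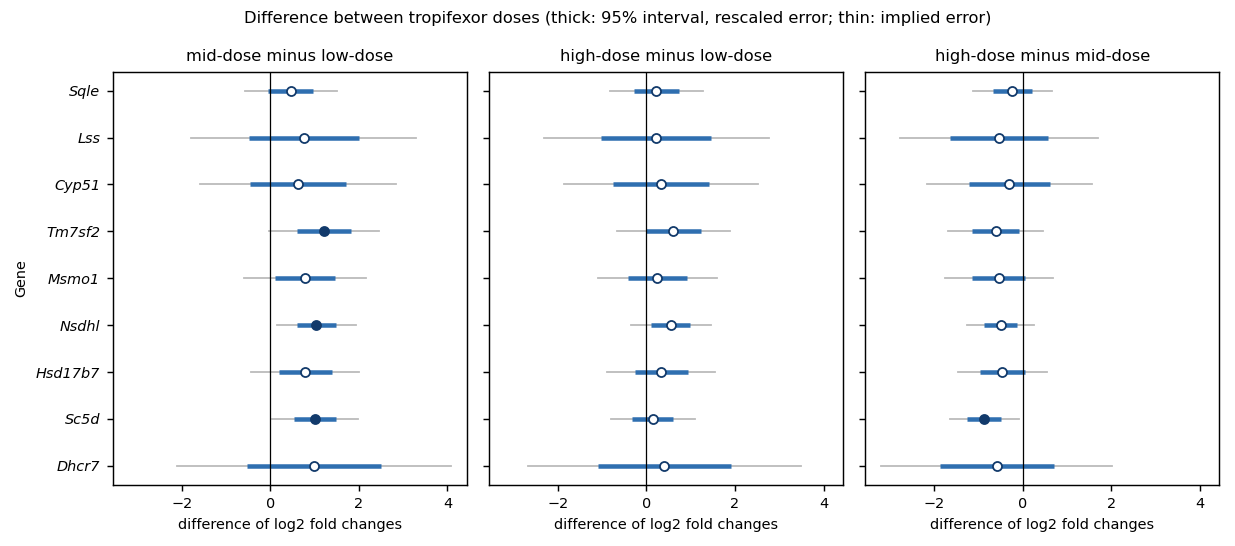
Difference between the log2 fold changes of a pair of tropifexor doses, each relative to tropifexor vehicle, for the 9 members (rows); thick bars are 95% intervals from the rescaled error, thin bars from the implied error, and filled points were called with the rescaled error. The 9 points lie above 0 for mid minus low dose, with Tm7sf2, Nsdhl and Sc5d filled, and below 0 for high minus mid dose, with Sc5d filled.

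Sc5d stood apart from the other 8 members in the tropifexor groups. It was singled out after its values were seen, so the intervals that follow describe the size of the gap and are not adjusted. At the high dose each of the other 8 members had a larger fold change than Sc5d, by 1.08 to 3.84 (log2), and 8 of the 8 intervals of the difference lay above 0 with the rescaled error and 6 of 8 with the implied error. At the mid dose the gap was 0.70 to 3.21, with 8 of 8 intervals above 0 by the rescaled and 4 of 8 by the implied error. At the low dose the gap was 0.61 to 3.75, with 6 of 8 and 4 of 8 intervals above 0. With OCA the gap ran from -0.17 to 0.83, with 2 of 8 and 0 of 8 intervals above 0. These intervals take the errors of a pair of genes as independent, although both genes come from the same livers.

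The make-up of the members' summed FPKM moved with this. Sc5d made up 52.8% of the summed FPKM of the 9 members in OCA livers and 58.6% in OCA vehicle livers. It made up 56.4% in tropifexor vehicle livers and 29.2%, 31.6% and 26.4% in low-, mid- and high-dose livers, against 45.3% in lean control. Msmo1 made up 8.97% in tropifexor vehicle livers and 23.9%, 22.1% and 23.2% in low-, mid- and high-dose livers, against 13.6% in lean control. Sqle made up 0.646% in tropifexor vehicle livers and 4.52%, 3.34% and 4.32% in low-, mid- and high-dose livers, against 3.41% in lean control. Sc5d was the most abundant of the 9 in all 7 groups, and Msmo1 was second in lean control and at the 3 tropifexor doses.

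**Figure D3:**
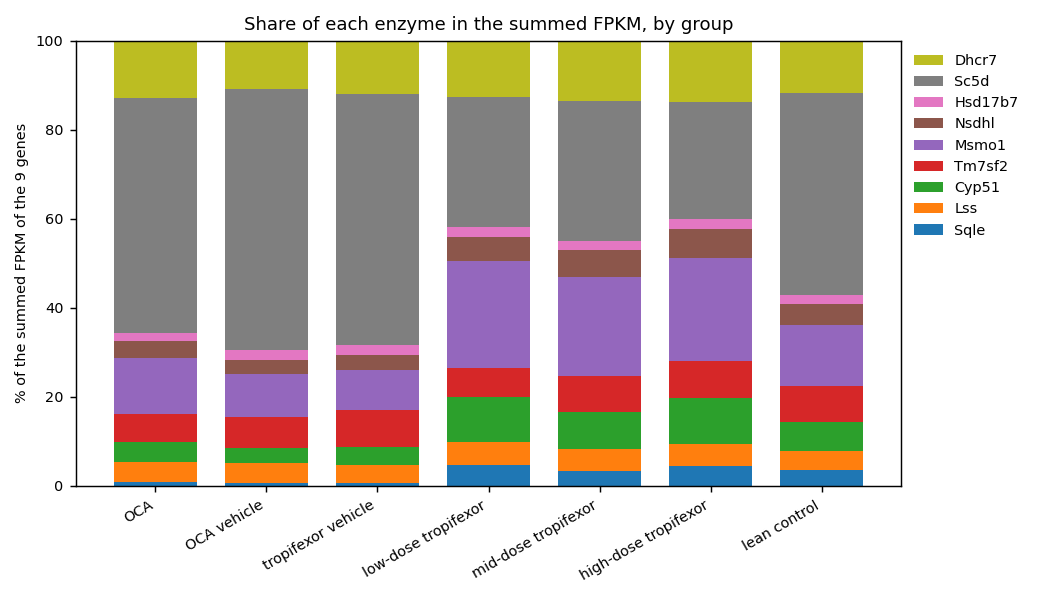
Share of each member in the summed FPKM of the 9 genes (percent, stacked bars) in each of the 7 groups. Sc5d holds 52.8% to 58.6% in the OCA group and both vehicle groups and 26.4% to 31.6% in the 3 tropifexor groups, against 45.3% in lean control.

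Set against lean control, the OCA group stayed below it and the tropifexor groups came close to or above it. In OCA livers 7 members were lower than in lean control, where 6.50% of tested genes were called lower, and the members' levels lay between 12.1% and 58.2% of lean. Lss at -0.95 (log2, q = 0.0689) and Dhcr7 at -0.87 (q = 0.282) were not called in the authors' deposited table. Sqle remained the furthest from lean, at 3.11 FPKM in OCA livers against 25.7 FPKM in lean control in the authors' deposited table.

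At the low dose of tropifexor 3 members were lower than in lean control, where 10.1% of tested genes were called lower. They were Sc5d with -1.21 (log2), Tm7sf2 with -0.89 and Hsd17b7 with -0.51 (q = 0.0368) in the authors' deposited table. At the mid dose 3 members were higher than in lean control, where 11.7% were called higher. They were Msmo1 with 1.01, Cyp51 with 0.69 (q = 0.0477) and Nsdhl with 0.64 in the authors' deposited table. At the high dose Msmo1 was higher, by 0.46 (q = 0.0441), and Sc5d lower, by -1.08, in the authors' deposited table, where 12.2% of tested genes were called higher and 15.2% lower. At these doses the median member stood at 76.0%, 136% and 94.3% of the lean level, and 2, 8 and 4 of the 9 members lay above lean in the low-, mid- and high-dose groups.

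Sqle was not called against lean control at any tropifexor dose. It stood at -0.17 (log2, 95% interval -0.49 to 0.14) at the low dose, 0.28 (0.05 to 0.52, q = 0.0729) at the mid dose and 0.04 (-0.19 to 0.27) at the high dose, per the authors' deposited table of each. A missed threshold does not show that its level equalled that of lean liver, and at the high dose the interval allows a level above lean by up to 0.27 on the log2 scale, or by up to 0.50 with the wider implied error. Sc5d was the member that stayed lowest against lean, at 43.2%, 86.6% and 47.2% of lean at the low, mid and high doses.

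**Figure D4:**
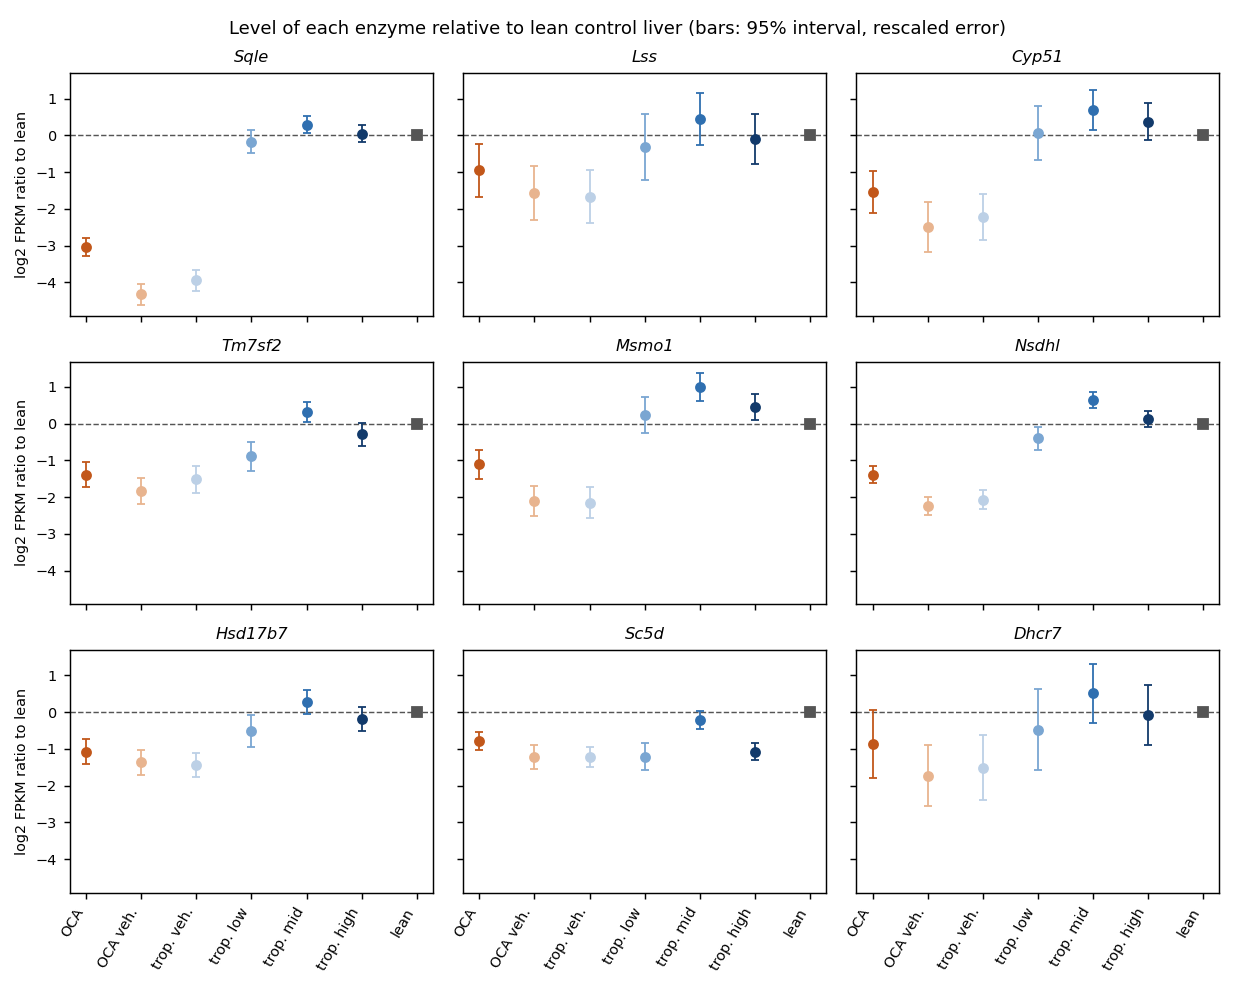
Log2 ratio of each group's FPKM to that of lean control for each member, with 95% intervals from the rescaled error; the square marks lean control at 0. Both vehicle groups lie lowest in each of the 9 panels, and the mid dose lies highest in 8 of 9, the exception being Sc5d, where lean control is highest.

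The order of the 7 groups was nearly shared among the members. The vehicle groups held the lowest places for 9 of 9 members, and OCA came next for 8 of 9. Mid-dose tropifexor was the highest group for 8 of 9. For Sc5d the order from low to high was OCA vehicle, tropifexor vehicle, low dose, high dose, OCA, mid dose and lean control, and its first 3 groups, at 42.7%, 42.7% and 43.2% of lean, differed by less than their SEs.

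Ebp and Lbr, which also act in the sterol arm, lay closer to lean control in both vehicle groups than each of the 9 members. Ebp, the sterol isomerase that supplies the substrate of Sc5d, changed by -0.58 (log2) with OCA vehicle and -0.60 with tropifexor vehicle relative to lean control, each per the authors' deposited table. Relative to tropifexor vehicle it stood at -0.38 (q = 0.236) at the low dose, rose by 0.43 at the mid dose and changed by -0.37 at the high dose, per the authors' deposited table of each. Lbr, a sterol reductase of the nuclear envelope that can carry out the reaction of Tm7sf2, was not called in either vehicle group against lean control or in any drug group against its vehicle, and its fold changes there ran between -0.36 and 0.19 in the authors' deposited tables.

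The mevalonate arm, which feeds the sterol arm, moved in the same directions. In each vehicle group 7 of its 9 genes fell relative to lean control, where 6.56% of all tested genes were called lower with OCA vehicle and 8.53% with tropifexor vehicle; the other 2 missed the threshold, with medians over the 9 of -1.52 for OCA vehicle and -1.54 for tropifexor vehicle. With OCA 4 of the 8 tested rose relative to OCA vehicle, where 1.81% of all tested genes were called higher. With tropifexor 6, 8 and 8 of 9 rose at the low, mid and high doses, where 6.03%, 11.8% and 9.93% of all tested genes were called higher, with medians over the 9 of 1.70, 2.52 and 2.00. At the mid dose Hmgcs1, HMG-CoA synthase, stood at 165 FPKM against 28.8 FPKM in tropifexor vehicle, a rise of 2.52 (log2), in the authors' deposited table. Idi1, the isomerase of the isoprene units, rose by 2.96 at the mid dose from a very low level, 1.09 FPKM at that dose against 0.140 FPKM in tropifexor vehicle, in the authors' deposited table. Relative to lean control 5 of the 9 were lower in OCA livers, where 6.50% of all tested genes were called lower. At the low dose 1 was higher and 2 were lower than in lean control, where 13.8% of all tested genes were called higher and 10.1% lower. At the mid dose 7 were higher, where 11.7% were called higher, and at the high dose 4 were higher and 1 was lower, where 12.2% were called higher and 15.2% lower.

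**Figure D5:**
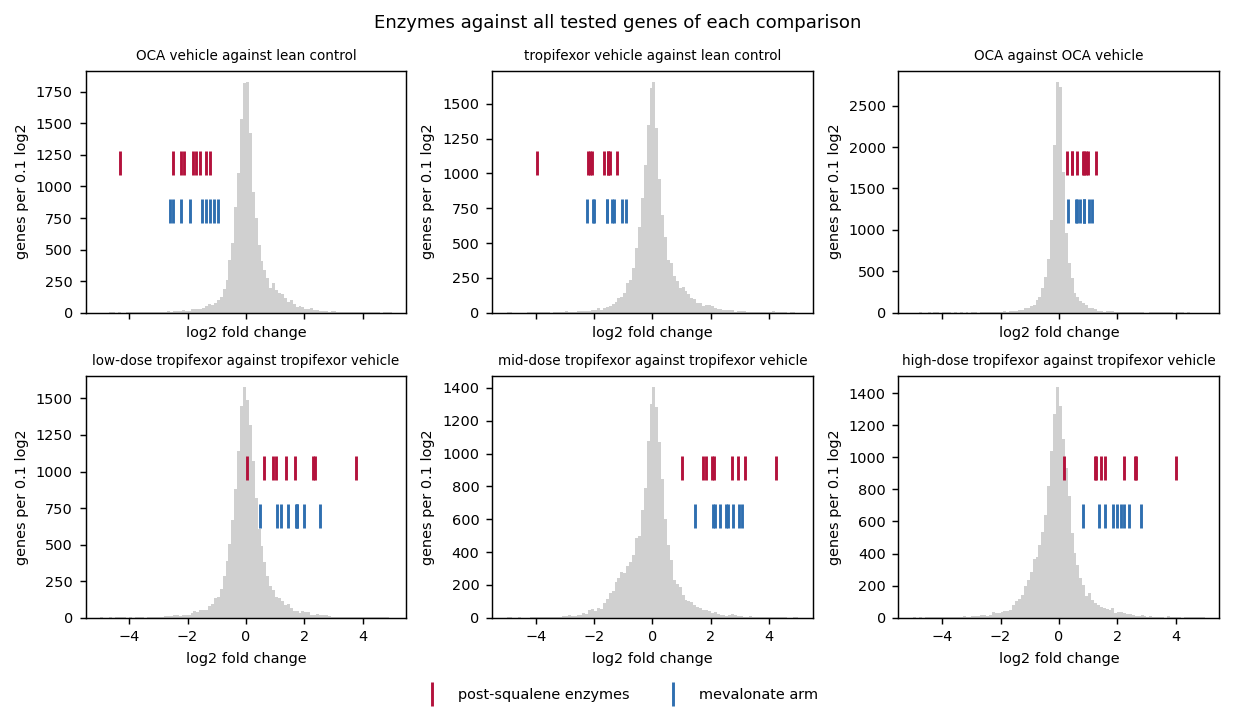
Log2 fold changes of the 9 members (red marks) and of the 9 genes of the mevalonate arm (blue marks) over the histogram of all tested genes between -5 and 5 (grey, genes per 0.1 log2), in 6 comparisons. The marks lie left of the bulk in both vehicle groups against lean control, with medians of -1.83 and -1.68 for the members, and mostly right of it in the drug groups, with medians of 0.84, 1.37, 2.12 and 1.59; Sc5d lies within the bulk at the low and high doses, at 0.02 and 0.16.

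Among 7 genes of the SREBP machinery, Srebf2, which encodes SREBP2, changed by -0.51 (log2) with OCA vehicle and -0.63 with tropifexor vehicle relative to lean control, each per the authors' deposited table. It rose by 0.89, 1.23 and 0.98 at the low, mid and high doses of tropifexor, and with OCA stood at 0.27 (q = 0.340), per the authors' deposited table of each drug group against its vehicle. Insig1, the sterol-regulated protein that retains SREBP in the endoplasmic reticulum, changed by -1.39 and -1.87 in the OCA and tropifexor vehicle groups and rose by 0.60, 1.26 and 0.66 at the low, mid and high doses, per the authors' deposited table of each. Over the whole list OCA vehicle livers had 1 gene higher and 3 lower than lean control. In that comparison 11.4% of all tested genes were called higher and 6.56% lower. Tropifexor vehicle livers had 3 of the list lower, where 8.53% of all tested genes were called lower. With OCA 0 were called, where 1.81% were called higher and 2.23% lower. At the low dose 2 rose and 1 fell, where 6.03% were called higher and 5.20% lower. At the mid dose 3 rose, where 11.8% were called higher. At the high dose 2 rose and 2 fell, where 9.93% were called higher and 15.5% lower. The gene that fell at the low dose was Srebf1, the related factor of fatty acid synthesis, with -1.97 in the authors' deposited table.

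Of 5 genes of sterol uptake and transfer, 4 fell in each vehicle group. Of all tested genes, 6.56% were called lower with OCA vehicle and 8.53% with tropifexor vehicle. With OCA 2 of the 5 rose, where 1.81% of all tested genes were called higher. At the low, mid and high doses 2, 3 and 3 of the 5 rose, where 6.03%, 11.8% and 9.93% were called higher. At the high dose 1 of the 5 fell, where 15.5% were called lower. Stard4, a sterol transfer protein, changed by -1.34 with OCA vehicle and -1.50 with tropifexor vehicle relative to lean control, each per the authors' deposited table. It rose by 0.53 with OCA and by 0.63, 1.17 and 0.71 at the low, mid and high doses, per the authors' deposited table of each drug group against its vehicle. Of 4 genes of electron donors, 1 rose and 1 fell in each vehicle group relative to lean control and 0 were called with OCA. Of all tested genes, 11.4% were called higher with OCA vehicle and 12.1% with tropifexor vehicle. At each tropifexor dose 1 of the 4 rose, where 6.03%, 11.8% and 9.93% were called higher at the low, mid and high doses. At these doses 1, 1 and 2 fell, where 5.20%, 15.7% and 15.5% were called lower. Counts this small in 4 genes are not read as a shift of the list. Por, the reductase that passes electrons to Sqle and Cyp51, rose by 1.06 with OCA vehicle and 0.90 with tropifexor vehicle, opposite to the members, and Cyb5b, a cytochrome b5, changed by -0.57 and -0.59 in the same groups, each per the authors' deposited table. Por rose by 0.77, 0.81 and 0.67 at the low, mid and high doses relative to tropifexor vehicle, per the authors' deposited table of each.

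The gene most like the members' median profile over 6 comparisons (both vehicle groups against lean control, OCA and 3 tropifexor doses against vehicle) was Pmvk, phosphomevalonate kinase of the mevalonate arm. Its root-mean-square difference from that profile was 0.0890 on the log2 scale, among 11806 genes tested in all 6 and with an FPKM of at least 1. The next were Pdzk1ip1 (0.151), 1810049J17Rik (0.329), Etnppl (0.333), Gm9763 (0.335) and Hmgcs1 (0.354). Acot3 (0.358), Aldoc (0.386) and Gm15764 (0.398) were also among the 10 nearest. The members themselves ranged from 0.145 for Lss to 0.981 for Sc5d and 2.15 for Sqle. The 6 comparisons share control groups, and the likeness is a description only.

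Markers of other liver cells moved between the same groups. Summed over 7 macrophage markers, the level ran over the tables from 119 to 128 FPKM in OCA livers and from 165 to 175 FPKM in OCA vehicle livers. It was 159 to 181 FPKM in tropifexor vehicle livers and 139 to 151, 80.3 to 86.7 and 105 to 114 FPKM at the low, mid and high doses, against 87.4 to 98.9 FPKM in lean control. Of these markers 5 rose in each vehicle group, where 11.4% of all tested genes were called higher with OCA vehicle and 12.1% with tropifexor vehicle. With OCA 2 fell, where 2.23% of all tested genes were called lower, and 0, 6 and 4 fell at the low, mid and high doses, where 5.20%, 15.7% and 15.5% were called lower. Summed over 6 stellate cell markers, the level was 82.8 to 88.9 FPKM in OCA livers and 88.1 to 93.9 FPKM in OCA vehicle livers. It was 112 to 128 FPKM in tropifexor vehicle livers and 43.5 to 47.4, 20.1 to 21.7 and 21.8 to 23.7 FPKM at the low, mid and high doses, against 29.1 to 32.9 FPKM in lean control. Of these 6 markers 3 rose in each vehicle group, 0 were called with OCA, and 3, 5 and 5 fell at the low, mid and high doses. The shares of all tested genes called are those given above for the macrophage markers. No marker was listed at 0 in any group. The 7 hepatocyte markers summed to 56903 to 61191 FPKM in OCA livers and 48649 to 51855 FPKM in OCA vehicle livers. Their sum was 44640 to 51080 FPKM in tropifexor vehicle livers and 47920 to 52214, 48286 to 52164 and 41826 to 45483 FPKM at the low, mid and high doses, against 69457 to 78537 FPKM in lean control. Lean control thus had a higher sum than each of the other 6 groups, the direction in which the members differed between the vehicle groups and lean control. The sum also stayed below lean at the low, mid and high doses, where 2, 8 and 4 of the 9 members lay above lean. Alb alone made up 55117 of the 74665.5 FPKM in lean control in the OCA vehicle comparison, where it was not called (q = 0.784, authors' deposited table). The median log2 fold change of the 7 hepatocyte markers was -0.53 with OCA vehicle, where 0 were called, and -0.57 with tropifexor vehicle, where 5 fell. Of all tested genes, 6.56% and 8.53% were called lower in these comparisons. The part of these marker shifts in the members' changes was not tested.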

How the data were processed

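Liver RNA of 28 mice was sequenced from stranded poly(A) libraries, per the labels' protocols. STAR 2.5.1b, Cufflinks 2.2.1, Cuffnorm and Cuffdiff and the build GRCm38 are the tools and build named per the submitters' processing notes; the role of each is not given there. The FPKM values are the authors' deposited group values, 1 per group of 4. The log2 fold changes and the test statistic, used as a score, are likewise the authors' deposited values, as are the p-value and the q-value, per the file headers. Test statistics scaled to 2.03 to 2.05 times their size matched the normal z of the deposited p in the median gene of each table (p between 0.0002 and 0.9), so the implied error, the fold change over its statistic, was divided by that factor (rescaled error). Dose effects were compared by the difference of fold changes with summed variances, a normal p and Benjamini-Hochberg adjustment over all genes tested in both tables. This test was tested on simulated data drawn with the rescaled error and with independent noise for each effect. The simulation therefore cannot show whether the rescaled error is the right one. Summed variances are conservative where a group is shared. Vehicle columns were matched to groups through the names of the comparisons; the same group's values deviated between tables by a median of at most 0.000757 (log2) beyond a constant. Other genes were named by rule: at most 4 of a list, those with the largest called fold change, and the 10 nearest the members' median profile. Some genes that this rule selects are not reported here. The members and lists were chosen with earlier results of these data known. Per-animal values were not used here. Alternatives were a q under 0.01, a mean FPKM of at least 1, centring on the median gene, a pseudocount of 1 and the implied error. Python 3.11.15, pandas 2.3.3 and scipy 1.17.1 were used.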

Additional observations from a re-analysis of the deposited data

Results flagged for a closer look

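In 4 cases the effect of tropifexor on a member differed between doses by the test of the difference itself (normal test with the rescaled error, Benjamini-Hochberg adjustment over all genes tested in both tables). Sc5d had a log2 effect lower by -0.86 at the high dose than at the mid dose. Mid-dose effects were above low-dose effects by 1.22 for Tm7sf2, by 1.04 for Nsdhl and by 1.01 for Sc5d. Each effect is relative to the same vehicle group, and none of the 4 differences was called with the implied error. Values per animal were not used here, so no group was searched for a liver far from the others.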

How the results depend on the processing

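With the implied error, 0 members were called for mid minus low dose (3 with the rescaled error) and 0 for high minus mid dose (1 with the rescaled error). At a q under 0.01 the high dose against lean control had 1 called member in place of 2. The other 39 counts of called members stayed within 1.5 times their value, and the 20 medians of the members under centring or a pseudocount of 1 kept their direction and moved by less than 1 SD of the members' spread. No paired analysis was possible because the tables hold 1 value per group of 4 animals, and leaving out an animal was not run for the same reason. A difference in library depth, or a liver that stands apart, cannot be seen in group values. The gap between Sc5d and the other members was added after seeing the data.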
